A study of Mus musculus with 8 samples.

Results

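Open chromatin of c-Kit+ bone marrow cells from Flt3-ITD mice was compared with that of control mice in 4 of the 8 ATAC-seq libraries of the study, 2 per group. Libraries were taken by title, and the members of the comparison were the autosomal regions (chromosomes 1 to 19) in which these 4 libraries had peaks. Merging gave 87062 regions, of which 57392 were called in both libraries of at least 1 group and could show a difference shared by both libraries of a group. The study as a whole asks how the dose of cohesin acts in normal and malignant blood formation. Its other genotypes were Smc3 del/+ and a combined genotype labelled Smc3 fl/del Flt3-ITD. They served here mainly as libraries that had no part in finding the gained and lost regions of this comparison. They were also compared with each other, and entered some alternatives.

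The control mice carried the genotype Smc3 fl/+, a floxed allele of a cohesin subunit gene, and had no Mx1-Cre. The Flt3-ITD mice carried the Flt3 internal tandem duplication, and their title marks them as Mx1-Cre positive. Every mouse received PIpC, and marrow was taken 4 weeks later. Cells were selected with magnetic beads against Cd117 (c-Kit), and each sample held 50000 cells. Genotype label and title of the Flt3-ITD libraries name no floxed Smc3 allele, but their free-text description gives Mx1-cre with one. It appears exchanged with that of the Smc3 del/+ libraries, which speaks of the Flt3-ITD allele, so every statement on Flt3-ITD rests on title and genotype label. Cre, the floxed allele and the duplication differ together between the groups and cannot be told apart. The sources used here do not give strain, age or sex. Nothing in the labels says outright that both libraries of a group are from different animals, and the spread between them may be technical.

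FLT3 is a receptor tyrosine kinase on early hematopoietic progenitors that responds to FLT3 ligand. The internal tandem duplication lengthens its juxtamembrane region, makes the kinase active without ligand, drives STAT5 and RAS-MAPK signaling, and is a common lesion of acute myeloid leukemia. ATAC-seq uses the Tn5 transposase to cut accessible DNA, so its peaks mark promoters, enhancers and other open elements. Mx1-Cre is a recombinase under an interferon-responsive promoter, which PIpC induces in blood-forming cells and in some other tissues. The c-Kit+ fraction mixes stem cells with progenitors of several lineages, so fewer cells of a type and less open chromatin per cell cannot be told apart.

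Autosomal lists held 64430 and 61542 peaks in Flt3-ITD replicates 1 and 2, and 71621 and 62211 in control replicates 1 and 2. Read depth is unknown, because the lists carry no read numbers. Each list was therefore shortened to the 61542 peaks of the shortest one, by the authors' score and then by width. This removed 10079 peaks from control 1, 2888 from Flt3-ITD 1, 669 from control 2 and none from Flt3-ITD 2. Only 9 to 18 peaks had identical ends in any pair of the 4 lists, so no list repeated another. Peak number was 62986 ± 2042 (SD, n = 2) in Flt3-ITD and 66916 ± 6654 in control, which overlapped (difference -3930, exact two-sided permutation p = 0.667). Covered length was 35.8 ± 1.14 Mb and 35.1 ± 3.33 Mb (SD, n = 2), a difference of 0.68 Mb (exact permutation p = 1.0). The smallest p that 2 libraries against 2 allow is 0.333.

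Of the 57392 regions tested, 38889 (67.8%) were called in all 4 libraries, which is 44.7% of all 87062 regions. Flt3-ITD cells gained 3579 regions, 6.24% of those tested, where each Flt3-ITD library but no control library had a peak. They lost 4157 regions, 7.24%, where the opposite held. Gains were thus 7.48% of the 47822 regions called in both Flt3-ITD libraries, and losses 8.58% of the 48459 called in both control libraries.

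Calls made in a single library of a genotype outnumbered the gained and lost regions. Among regions called in any Flt3-ITD library, 23341 (32.8%) were called in 1 of the 2, and among those called in any control library 22643 (31.8%) were. The 2 Flt3-ITD libraries shared 67.2% of the regions called in either, and the 2 control libraries 68.15%. Across genotypes the 4 library pairs shared 61.9% to 62.2%. Each of the 4 pairs across genotypes therefore shared less than either pair within a genotype. No test is given for the counts of gained and lost regions. Each count needs all 4 libraries, and leaving one out loosens it: gains were 10684 and 10866 without Flt3-ITD replicate 1 or 2 and 6721 and 6465 without control replicate 1 or 2, and losses were 7383, 7334, 10687 and 10871 in the same order.

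**Figure D1:**
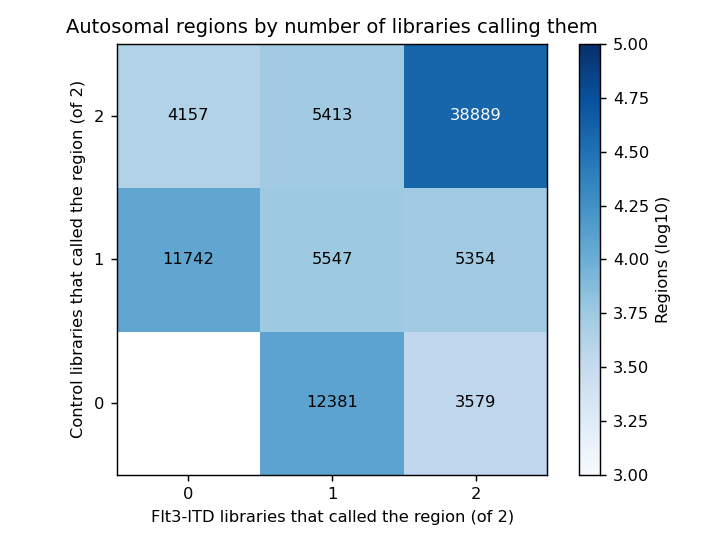
Number of autosomal regions by how many Flt3-ITD libraries (x axis, 0 to 2) and control libraries (y axis, 0 to 2) called them, with the shade on a log10 scale. The 38889 regions in the upper right corner were called in all 4 libraries, and the 3579 gained and 4157 lost regions in the lower right and upper left corners were fewer than the 12381 and 11742 called in a single library of Flt3-ITD or control.

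Gained regions depended more than lost regions on where the lists ended. A control peak beyond the end of the shortened list overlapped 836 gained regions (23.4%), and 804 of these held such a peak of control 1. The other 2743 gained regions (76.6%) had no control peak in the full lists. Of the lost regions, 193 (4.64%) overlapped a peak left out of Flt3-ITD 1, and 3964 (95.4%) had no Flt3-ITD peak in the full lists. With the full lists the counts were 2956 gained (4.95% of 59760) and 4930 lost (8.25%).

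Regions called on one side alone were mostly weak ones. Regions called in both Flt3-ITD libraries were ranked by their mean score percentile, with those at the highest score, 1, in both libraries set apart and the rest split into 5 groups of like size. Of the weakest group, 30.2% were missing from both control libraries, followed by 15.1%, 7.05%, 2.31% and 1.36%. At score 1 in both, 165 of 17346 regions (0.951%) were missing from control. Regions called in both control libraries were missing from both Flt3-ITD libraries in 27.7%, 17.8%, 10.7%, 5.22% and 3.09% of the same 5 groups, and in 222 of 17899 (1.24%) at score 1. In the weakest group gains took the larger share, and in the other groups losses did.

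**Figure D2:**
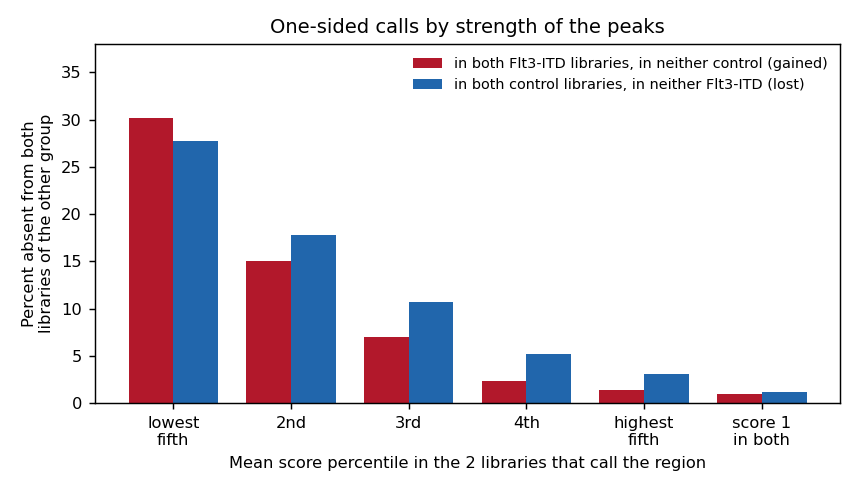
Percent of regions called in both libraries of one genotype that were absent from both libraries of the other (y axis), by mean score percentile in the calling libraries (x axis, 5 groups from low to high and the regions at score 1 in both). Bars start at 0, red for gained and blue for lost. Shares fell from 30.2% and 27.7% in the weakest group to 0.951% and 1.24% at score 1.

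In all, 4.61% of gained and 5.34% of lost regions had score 1 in both calling libraries, against 42.8% of the shared regions by their Flt3-ITD scores and 43.6% by their control scores. The median of the mean score percentile was 23.3 for gained, 27.0 for lost and 69.8 or 70.6 for shared regions. The score is the value by which the lists were shortened, so these percentiles describe the regions and test nothing.

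Some gained and lost regions lay beside a peak of the other genotype. Such shares were not taken over all regions tested, so whether they differ from those of regions in general was not tested. Of the gained regions, 831 (23.2%) had peaks of both control libraries at a distance of up to 1 kb, 342 (9.56%) had one of a single control library, and 2406 (67.2%) had none. Peaks of both Flt3-ITD libraries lay that near to 773 lost regions (18.6%), those of a single library to 355 (8.54%) and none to 3029 (72.9%). The strongest regions differed from the rest here. At score 1 in both libraries, 154 of 165 gained regions (93.3%) and 186 of 222 lost regions (83.8%) had a peak of both other libraries within 1 kb, against 17.1% and 10.6% in the weakest of 4 groups of like size by score. For these strong regions the gain or loss is thus in most cases a peak beside one of the other genotype, and not an open element that the other genotype lacks within 1 kb.

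Isolated regions had no peak of the other genotype within 10 kb. There were 960 isolated gains (26.8%) and 1218 isolated losses (29.3%), again without a share over all regions tested to set beside them. With the full lists of the other genotype, 687 gained and 1134 lost regions were isolated. At score 1 in both libraries, no gained region and 2 lost regions were isolated.

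The 5 highest-ranked gained regions had score 1 in both Flt3-ITD libraries, and width broke ties. Coordinates are mm9, and no gene is assigned because no annotation of that build was used here. The first, chr7:29159948-29161266, had peaks of 1318 and 1268 bp in Flt3-ITD 1 and 2, and the nearest control peaks lay 1825 and 1421 bp away. It was called in both Smc3 del/+ libraries and in neither of the combined genotype. The region chr8:74845892-74847186, with peaks of 1176 and 1295 bp, had control peaks 2600 and 719 bp away and the same calls in the other genotypes. At chr14:68505799-68507067 the Flt3-ITD peaks measured 1082 and 1091 bp, control peaks lay only 107 and 241 bp away, and all 4 libraries of the other genotypes had a peak. At chr16:10991668-10992807 control peaks lay 95 and 213 bp away, and 1 library of the combined genotype had a peak. The region chr7:26004323-26005455 was called in no other library of the study, with control peaks 978 and 990 bp away. In Flt3-ITD the 5 peaks exceeded 1000 bp in either library, and control peaks of both replicates lay no more than 2600 bp from each.

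The 5 highest-ranked isolated gains had mean score percentiles of 64.9 to 75.3, against 83.5 for the 5 regions above. The first, chr16:88701568-88702018, had peaks of 368 and 380 bp in Flt3-ITD, and the nearest control peak was 859592 bp away in the shortened lists and 496198 bp in the full ones. It was called in 1 Smc3 del/+ library and in both libraries of the combined genotype. At chr5:151859067-151860490 the peaks were 435 and 1424 bp wide, control peaks lay 189547 and 191083 bp away, and the same 3 libraries had a peak. At chr17:59437615-59438165, with peaks of 551 and 403 bp, both combined-genotype libraries and neither Smc3 del/+ library had a peak. The region chr12:96696069-96696428, with peaks of 285 and 324 bp, was called in no other library. The region chr10:5278649-5279731, with peaks of 454 and 1083 bp, overlapped a control 2 peak that the shortening had removed, so it was isolated only in the shortened lists.

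Among the 5 highest-ranked lost regions, chr7:141859774-141861922 had control peaks of 1719 and 1708 bp, with Flt3-ITD peaks 45 and 213 bp away. At chr11:30082161-30083466 the control peaks of 1111 and 1194 bp had Flt3-ITD peaks 351 and 394 bp away, and at chr7:90801599-90802838 those of 1240 and 1026 bp had them 800 and 769 bp away. At chr4:144622961-144624159, with control peaks of 1199 and 1059 bp, a peak left out of Flt3-ITD 1 overlapped the region. At chr11:84636728-84637922 the control peaks were 1035 and 1182 bp wide and Flt3-ITD peaks lay 3547 and 3576 bp away. The regions on chromosome 4 and at chr11:84636728 were called in both Smc3 del/+ libraries and in neither of the combined genotype, whereas the other 3 were called in 1 Smc3 del/+ library and in 1 or both of the combined genotype.

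Of the 5 highest-ranked isolated losses, chr1:131439044-131440055 was called with peaks of 1012 and 352 bp in control, and Flt3-ITD peaks lay 80928 and 666550 bp away. Each Smc3 del/+ library but no combined-genotype library called it, and the same held for chr14:69922605-69923058 (363 and 422 bp in control, with a Flt3-ITD 1 peak 7124 bp away in the full list, so isolated only in the shortened ones) and chr11:110324372-110324866 (445 and 425 bp). At chr8:113494026-113494807, with control peaks of 382 and 413 bp, all 4 of these libraries had a peak. At chr2:125991675-125992062, with control peaks of 327 and 388 bp, 1 Smc3 del/+ library did. Each of these 5 losses was thus called in at least 1 Smc3 del/+ library, and 4 of the 5 in neither library of the combined genotype.

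Gained and lost regions lay somewhat farther from shared open chromatin than shared regions lay from one another. The median gap to the nearest region called in all 4 libraries was 7105 bp for gained regions (quartiles 1818 and 26016 bp), 8054 bp for lost regions (2575 and 22620 bp) and 5607 bp for shared regions (1968 and 16085 bp). Regions called in a single library, which describe unrepeated calls, stood at 6730 bp. More than 50 kb separated 14.9% of gained, 12.2% of lost, 13.6% of single-library and 7.66% of shared regions from the nearest shared region. Within 1 kb lay 16% of gained, 12.7% of lost, 17.6% of single-library and 13.0% of shared regions. By the median, gained regions stood nearest to single-library calls, and lost regions stood farther out than any other class. Close to shared regions, within 1 kb, the share of lost regions was near that of shared ones. No test was made, since regions are not replicates.

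**Figure D3:**
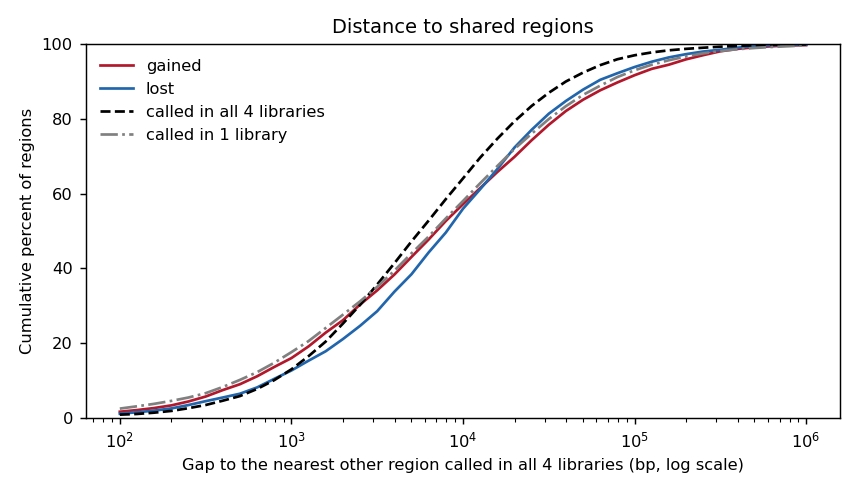
Cumulative percent of regions (y axis) by the gap in bp, on a log scale, to the nearest other region called in all 4 libraries (x axis), for gained, lost, shared and single-library regions. The shared curve reaches its median at 5607 bp, before the gained curve at 7105 bp and the lost curve at 8054 bp, and the single-library curve, with a median of 6730 bp, runs close to that of gained regions.

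Gained and lost regions were spread over the genome. By autosome, gained regions made up 4.98% (chromosome 19) to 6.93% (chromosome 9) of the regions tested, and lost regions 6.58% (chromosome 10) to 8.29% (chromosome 19). On chromosome 5, which carries Flt3, the shares were 6.73% and 7.19%. On chromosome 16, which carries Mx1, they were 6.38% and 7.22%. Chromosome 19, which carries Smc3, had both the lowest gained and the highest lost share of the 19 autosomes, with 95 gained and 158 lost of 1907 tested. Chromosome 8 was close in its gained share (5.03%), and chromosome 7 was next in its lost share (7.84%). A link to the genes these chromosomes carry was not tested.

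In 1 Mb windows, gained regions occurred in 1500 and lost regions in 1496 of 2186 windows, and 1170 windows held both. The window at 169 to 170 Mb of chromosome 2 held 11 gained regions of 32 tested (34.4%), from 169345078 to 169762767. None of the 11 was called in either Smc3 del/+ library, and 5 and 6 were called in the combined-genotype libraries. The window at 110 to 111 Mb of chromosome 9 also held 11 gained regions, of 88 tested (12.5%), of which 3 and 4 were called in Smc3 del/+ and 4 and 5 in the combined genotype. Lost regions were most numerous at 84 to 85 Mb of chromosome 17, with 13 of 94 (13.8%), of which 6 and 9 were called in Smc3 del/+ and 2 and 1 in the combined genotype. At 88 to 89 Mb of chromosome 6, a window chosen after its values were seen, 12 of 66 regions (18.2%) were lost, and 8 of them were called in each Smc3 del/+ library and 1 in each combined-genotype library. These windows also held regions of the other direction. The windows on chromosomes 2 and 9 had 2 and 8 lost regions, and those on chromosomes 17 and 6 had 5 and 4 gained regions.

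Peaks were wider in Flt3-ITD than in control. The median width of all autosomal peaks was 423 and 425 bp in the Flt3-ITD libraries and 409 bp in both control libraries, so the groups did not overlap. The difference of 15.0 bp (424 ± 1.41 against 409 ± 0 bp, SD, n = 2) had an exact two-sided permutation p of 0.333, the smallest this design allows, and 0.555 after Benjamini-Hochberg adjustment over 5 library measures. Widths had a main mode at 300 to 400 bp and a minor one at 1000 to 1100 bp in all 4 libraries. Peaks of at least 700 bp, called broad here, made up 26.1% and 26.3% of peaks in Flt3-ITD and 20.6% and 21.2% in control. That difference, 5.34 percentage points (26.2 ± 0.116% against 20.9 ± 0.452%, SD, n = 2), had the same exact permutation p of 0.333. The limit of 700 bp was set after the widths were seen. Wide peaks were not particular to Flt3-ITD. In the full lists of Smc3 del/+ the median widths were 435 and 432 bp, with 29.3% and 28.6% of peaks broad. In the combined genotype they were 405 and 407 bp, with 19.7% and 20.5% broad.

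Besides the share of broad peaks, the median widths of narrow and of broad peaks also stood higher in Flt3-ITD. How far the share and these widths each make up the shift was not computed. Below 700 bp the median width was 388 bp in both Flt3-ITD libraries and 386 and 385 bp in control. From 700 bp up it was 1052 and 1050 bp in Flt3-ITD and 1035 and 1030 bp in control.

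**Figure D4:**
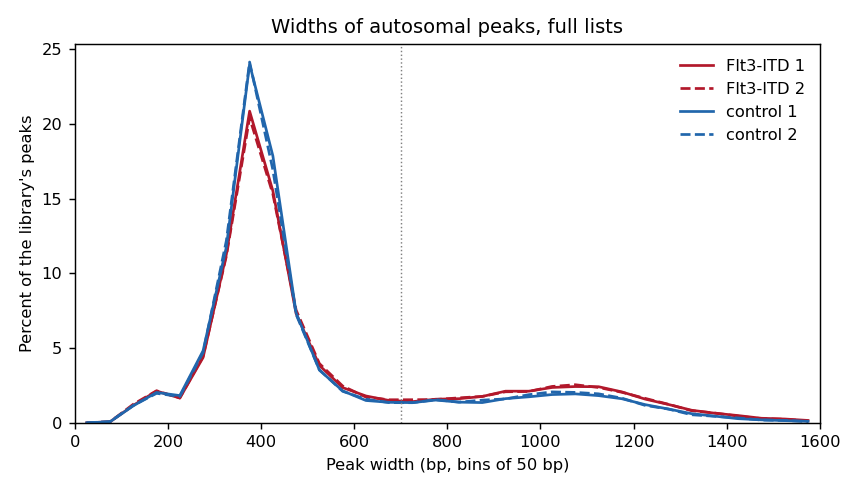
Percent of each library's autosomal peaks (y axis) by width in bins of 50 bp (x axis), full lists, with the limit of 700 bp for broad peaks dotted. Control libraries (blue) stand higher in the main mode at 300 to 400 bp, and Flt3-ITD libraries (red) stand higher around 1000 to 1100 bp. All peaks of at least 700 bp together make up 26.1% and 26.3% in Flt3-ITD against 20.6% and 21.2% in control.

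Wider peaks were also found at regions open in every library. In the 38889 shared regions the median width was 433 and 437 bp in Flt3-ITD and 413 and 415 bp in control (435 ± 2.83 against 414 ± 1.41 bp, SD, n = 2, exact permutation p = 0.333). Both Flt3-ITD libraries were wider than both control libraries at 8555 regions (22.0%) and narrower at 5046 (13.0%). Random order of 2 libraries against 2 would separate the groups, one way or the other, at a share of 0.333 of regions without ties. These counts are thus not a list of changed sites. Over 35113 regions with 1 peak per library, the width differences of the 2 same-numbered library pairs correlated with r = 0.0225 and had the same sign in 50.7%. The median difference of mean log2 width was 0.08 (quartiles -0.21 and 0.50). Taken for each of the 4 pairs of a Flt3-ITD and a control library, the median difference lay between 0.0506 and 0.0646, above 0 in every pair. Single regions varied more, with a median absolute difference between libraries of the same genotype of 0.40 for Flt3-ITD and 0.32 for control. Without 1 of the 4 libraries, which loosens the rule, wider regions numbered 15259 to 16375 and narrower regions 10709 to 11972. Of the 14961 regions at score 1 in all 4 libraries, 24.3% were wider and 12.1% narrower, so the excess of wider regions was not limited to weak peaks.

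Broad peaks were only partly repeated at the same places. Of 35113 shared regions with exactly 1 peak in each library, 1362 (3.88%) were broad in each Flt3-ITD library and narrow in each control library, and 546 (1.55%) the reverse. Over all 35113 regions, 26.5% and 26.9% were broad in the Flt3-ITD libraries and 19.3% and 20.5% in control. Whether the 1362 and 546 go beyond these general shares was not tested. Another 1324 were broad in all 4 libraries. Of the 9293 regions broad in Flt3-ITD 1, 45.5% were broad in Flt3-ITD 2, 36.3% in control 1 and 37.4% in control 2. Of the 6791 broad in control 1, 44.6% were broad in control 2, 49.7% in Flt3-ITD 1 and 50.4% in Flt3-ITD 2. A broad peak of control 1 was thus repeated more often in Flt3-ITD, which had more broad regions (9293 and 9441 against 6791 and 7194), than in control 2.

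The regions named next had the 5 largest width differences in each direction among those whose groups did not overlap. They were picked in these same 4 libraries, so the size of their differences was set by the choice. Across all 35113 regions such differences hardly repeated between library pairs (r = 0.0225, the same sign in 50.7%). At chr1:155964253-155966645 the peak measured 1728 and 2393 bp in Flt3-ITD and 164 and 341 bp in control, with 358 and 351 bp in Smc3 del/+ and 372 and 538 bp in the combined genotype. At chr3:50246991-50248933 it measured 1187 and 1943 bp in Flt3-ITD, 139 and 267 bp in control, 299 and 1346 bp in Smc3 del/+ and 1565 and 1782 bp in the combined genotype. At chr17:7282402-7284337 the values were 1759 and 1936 bp in Flt3-ITD and 373 and 158 bp in control, with 365 and 697 bp in Smc3 del/+ and 908 and 1716 bp in the combined genotype. At chr2:177182278-177183950 they were 1277 and 1523 bp and 221 and 129 bp, with 376 and 399 bp in Smc3 del/+ and 1590 and 334 bp in the combined genotype. The fifth of these, chr15:76180102-76181375, measured 1224 and 1161 bp in Flt3-ITD and 137 and 169 bp in control, with 1255 bp in Smc3 del/+ 1, no peak in Smc3 del/+ 2, and 228 and 1085 bp in the combined genotype. Of these 5 regions, only that on chromosome 1 was broad in Flt3-ITD alone.

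In the other direction, chr13:120115683-120116590 measured 154 bp in both Flt3-ITD libraries and 890 and 896 bp in control, with 712 to 1159 bp in the other 4 libraries. At chr7:87336918-87338197 it measured 112 and 347 bp in Flt3-ITD, 1280 and 1077 bp in control and 785 to 1152 bp in the others. At chr5:113542638-113544800 the peak measured 299 and 342 bp in Flt3-ITD and 1894 and 2163 bp in control. The other genotypes varied there, with 1497 and 280 bp in Smc3 del/+ and 1075 and 1739 bp in the combined genotype. At chr4:107386706-107388057 it measured 207 and 114 bp in Flt3-ITD and 1067 and 1352 bp in control, and the peaks of 118 bp in Smc3 del/+ 1 and 413 bp in combined-genotype replicate 1 were the only others. At chr14:75409609-75411427 it measured 361 and 138 bp in Flt3-ITD, 1536 and 1377 bp in control, 1314 and 406 bp in Smc3 del/+ and 130 and 342 bp in the combined genotype. Among the 4 libraries of these genotypes the peak was thus broad in all 4 on chromosomes 13 and 7, in 3 of them on chromosome 5, in 1 on chromosome 14 and in none on chromosome 4.

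The gained and lost regions were then read in the 4 libraries that had no part in finding them. The Smc3 del/+ mice carried 1 deleted Smc3 allele with Mx1-Cre. The combined genotype carried Mx1-Cre, a floxed Smc3 allele and Flt3-ITD, and its labels leave the state of the second Smc3 allele unclear. Its libraries stood apart on chromosome Y, with 294 and 282 peaks against 84 to 98 in each of the other 6 libraries, and on X, with 2.60% and 2.72% of their peaks against 3.49% to 3.79%. The part of these differences in the autosomal calls was not tested. All 4 lists were shortened to the 59492 peaks of the shortest, Smc3 del/+ 1, which removed 18624 and 18137 peaks from the combined genotype and 1402 from Smc3 del/+ 2.

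Of all regions tested, 79.6% were called in each Smc3 del/+ library, and 80.7% and 80.2% in the combined-genotype libraries. Of the gained regions, 31.0% and 33.0% were called in Smc3 del/+ and 56.1% and 55.7% in the combined genotype (32.0 ± 1.4 against 55.9 ± 0.316, SD, n = 2). Of the lost regions, 59.8% and 61.3% were called in Smc3 del/+ and 25.4% and 24.7% in the combined genotype (60.5 ± 1.05 against 25 ± 0.493). Both kinds thus had the calls of the combined genotype closer to those of Flt3-ITD than the calls of Smc3 del/+ were. The difference was 23.9 percentage points for gained regions, 39.1 with full lists and 15.8 with 20000 peaks per list. Full autosomal lists held 78116 and 77629 peaks in the combined genotype, against 59492 and 60894 in Smc3 del/+. Longer lists call more regions of any kind, and the share over all regions tested was not taken at these other lengths. The part of list length in the full-list values was not tested. With regions found from 3 libraries the difference of gained regions was 11.4 and 13.0 without Flt3-ITD replicate 1 or 2, and 17.5 and 17.0 without control replicate 1 or 2. Lost regions differed by -35.5 percentage points, by -17.5 with full lists and by 1.35 with 20000 peaks per list. The contrast of lost regions was thus not seen in the shortest lists. The SD over library pairs, 2.23, comes from longer lists and does not measure the spread of that value. The difference of lost regions was -20.3 and -21.9 without Flt3-ITD replicate 1 or 2, and -18.6 and -24.5 without control replicate 1 or 2. With the Flt3-ITD and Smc3 del/+ libraries exchanged throughout, as their descriptions would have it, the differences were -3.68 for gained and -5.69 for lost regions.

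Isolated regions carried the contrast most clearly among gains. Of the 960 isolated gains, 25.9% and 29.5% were called in Smc3 del/+ and 64.0% and 62.7% in the combined genotype. Of the 1173 gains with a control peak within 1 kb, 44.5% and 44.4% were called in Smc3 del/+ and 48.9% and 48.7% in the combined genotype. The mean difference was 35.6 percentage points for isolated gains and 4.35 for gains beside a control peak. Of the isolated losses, 59.1% and 62.6% were called in Smc3 del/+ and 19.7 ± 0.29% (SD, n = 2) in the combined genotype, a difference of -41.1. Losses beside a Flt3-ITD peak were called in 61.3% and 59.2%, and in 39.1% and 39.2%, a difference of -21.1.

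Score moved the shares as well. From the weakest to the strongest of 4 score groups of gained regions, the mean share rose from 20.6% to 47.2% in Smc3 del/+ and from 39.8% to 70.8% in the combined genotype. For lost regions it rose from 41.7% to 79.8% in Smc3 del/+ and from 22.3% to 32.3% in the combined genotype. At score 1 in both libraries the genotypes were close, with 61.2 ± 0.857% and 60.0 ± 6.86% of gained regions and 67.1 ± 5.1% and 59.7 ± 0.319% of lost regions (SD, n = 2). Those strong regions are the ones that mostly lay beside a peak of the other group.

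**Figure D5:**
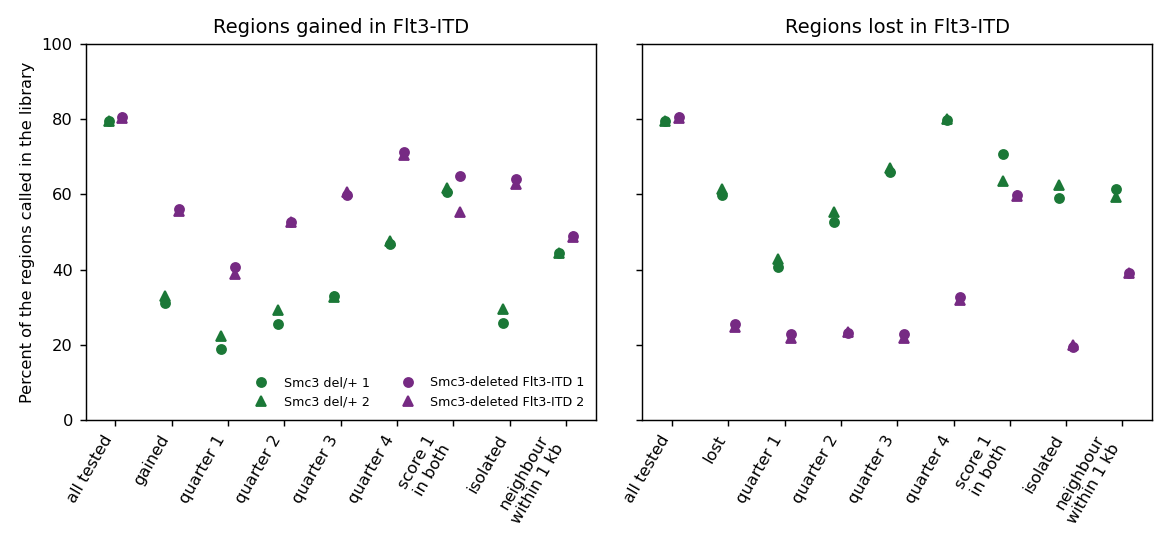
Percent of gained regions (left) and lost regions (right) called in each library of Smc3 del/+ (green) and the combined genotype (purple, labelled Smc3-deleted Flt3-ITD), circles for replicate 1 and triangles for replicate 2 (y axis, 0 to 100), for all regions tested and by score in 4 groups from weak to strong, score 1, isolation and a neighbour within 1 kb (x axis). Gained regions lie at 31.0% and 33.0% in Smc3 del/+ against 56.1% and 55.7%, and lost regions at 59.8% and 61.3% against 25.4% and 24.7%, whereas all regions tested lie at 79.6% to 80.7%.

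Single regions were less clear-cut than these shares. Both libraries of the combined genotype and neither of Smc3 del/+ called 861 gained regions (24.1%), and 168 (4.69%) showed the reverse. All 4 libraries called 294 (8.21%) and none called 679 (19%). Among lost regions, 1376 (33.1%) were called in both Smc3 del/+ libraries and neither of the combined genotype, 147 (3.54%) showed the reverse, and none of the 4 libraries called 698 (16.8%).

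Gains and losses were also counted for the combined genotype against Smc3 del/+, with all 8 lists at 59492 peaks and no library in both comparisons. This is not the same genotype difference as Flt3-ITD against control, because titles mark both of its sides as Mx1-Cre positive. Its sides may also differ in Smc3, which the labels do not settle, and they differ in their peaks on X and Y, as given above. The sources used here do not give sex, so any difference in sex cannot be told apart from genotype. Which of these differences the calls shared by both comparisons follow was not tested. Without Smc3 deletion 3220 of 55692 regions were gained (5.78%) and 3772 lost (6.77%), and with it 7148 of 59122 were gained (12.1%) and 5659 lost (9.57%). Of the 3220 gained regions, 869 (27.0%, and 12.2% of the 7148) were also gained with Smc3 deletion and 149 (4.63%) were lost. Of the 3772 lost regions, 1386 (36.7%, and 24.5% of the 5659) were also lost and 124 (3.29%) were gained. Over all 55692 regions tested without Smc3 deletion, 4.94% were gained and 4.96% lost with it. The width difference at shared regions was not repeated there. In 26190 regions called in all 8 libraries, the combined genotype was narrower than Smc3 del/+ by a median of -0.12 in log2 width. The value was -0.132 at the 5856 regions wider in Flt3-ITD and -0.125 at the 3364 narrower ones.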

How the data were processed

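The authors deposited 1 peak list per library, with chromosome, start, end, name, a score between 0.99 and 1 and strand in 6 columns and no header. The sources used here do not say what this score measures, and it served only to order peaks inside a list. Reads were aligned with Bowtie to the mm9 build, per the submitters' processing notes. These sources give no peak caller, read depth, duplicate handling or treatment of the transposase offset.

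From the deposited positions, repeated intervals were counted once, each autosomal list was shortened to 61542 peaks by score, then width, then position, and peaks overlapping by at least 1 bp were merged into regions. A region was called in a library with a peak in it. Lists of the other genotypes were shortened to 59492 peaks, because both Smc3 del/+ lists were shorter than 61542. Values per library were compared with an exact two-sided permutation test, and counts of regions have no test. Replicate numbers were not used to pair libraries, because same-numbered libraries did not deviate together (r = -0.00038 for log2 width over 35113 regions and -0.000113 for calls over 57392).

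The regions and lists were chosen with earlier results of these data known. Named regions were, in each direction, the 5 with the highest mean score percentile, the 5 highest with no peak of the other group within 10 kb, the fullest 1 Mb windows, and the 5 largest width differences at regions with 1 peak per library. Gene lists and marker genes of c-Kit+ cells were planned for an mm9 annotation and were not analysed here, so the cell type was not checked. Alternatives were other list lengths and order, merging rules, an exchange of Flt3-ITD with Smc3 del/+ libraries, and leaving out each library. The steps were tested on simulated data. Tools were scipy 1.17.1, pandas 2.3.3, numpy 2.4.6 and matplotlib 3.10.9 under Python 3.11.15.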

Additional observations from a re-analysis of the deposited data

Results flagged for a closer look

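Width differed in opposite directions in the 2 comparisons of a genotype carrying Flt3-ITD with one lacking it. The median peak width was higher by 15.0 bp in Flt3-ITD than in control, and differed by -27.5 bp between the combined genotype and Smc3 del/+, with every library on the same side of the groups compared. The share of broad peaks differed by 5.34 percentage points without Smc3 deletion and by -8.85 percentage points with it, again in every library. The difference between these differences was not tested.

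On chromosome X, which the autosomal comparison leaves out, Flt3-ITD libraries held a mean of 3.72% of their peaks (3.65% and 3.79%), above the 3.49% of each control library. The combined-genotype libraries held 2.60% and 2.72%, the lowest of the 8. Of 2097 regions tested on X, 119 (5.67%) were gained and 146 (6.96%) lost, and of 81 on Y, 6 were gained and 6 lost.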

How the results depend on the processing

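With 2 libraries per group, fewer regions were gained than lost under every alternative, though by little at 40000 peaks per list (2330 against 2394). More were wider than narrower, with a positive median width difference, under every alternative. The exchange among these alternatives puts the libraries titled Smc3 del/+, not Flt3-ITD, against control. Leaving out a library loosens the rule for the group that is left with one, and lists then take the length of the shortest that remains. Gained regions then numbered 6465 to 10866, lost regions 7334 to 10871, wider regions 15259 to 16375 and narrower regions 10709 to 11972. Gains exceeded losses without Flt3-ITD replicate 1 (10684 against 7383) and without Flt3-ITD replicate 2 (10866 against 7334). Losses exceeded gains without control replicate 1 (10687 against 6721) and without control replicate 2 (10871 against 6465). The larger count was each time that of the group left with 1 library, so these removals cannot show which is larger. The median log2 width difference ran from 0.0549 to 0.0847, the median gap from 5926 to 6394 bp for gained and from 6534 to 7367 bp for lost regions, and the follow-up difference (combined genotype minus Smc3 del/+) from 11.4 to 17.5 percentage points for gained and from -24.5 to -18.6 for lost regions.

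Shorter lists gave fewer regions. With 40000 peaks per list 2330 regions were gained, 2394 lost and 3362 narrower, gaps were 9684 bp (gained) and 10760 bp (lost), and the follow-up difference of lost regions was -28.0. With 20000 peaks 923 were gained, 1076 lost, 3104 wider and 1665 narrower, the width difference was 0.0578, gaps were 19640 and 20680 bp, and the follow-up differences were 15.8 and 1.35. The latter has the opposite sign to the reported value. The SD of 2.23 over library pairs comes from longer lists and does not measure the spread at 20000 peaks, so no direction is shown. Full lists gave a gap of 6829 bp for gained regions and follow-up differences of 39.1 and -17.5, with longer lists in the combined genotype than in Smc3 del/+. With lists ordered by width alone the width difference was 0.0501, gaps 8724 and 9354 bp, and follow-up differences 21.2 and -24.5.

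Merging at an overlap of at least 100 bp gave a width difference of 0.0910, a gap of 7369 bp for gained regions and follow-up differences of 19.2 and -28.4. Merging across gaps of up to 500 bp gave gaps of 8579 and 8971 bp and follow-up differences of 31.9 and -40.1. Regions merged from all 8 libraries gave follow-up differences of 28.1 and -38.7. Counting a peak within 1 kb as a call gave gaps of 8906 and 9554 bp and follow-up differences of 30.8 and -42.7. With the Flt3-ITD and Smc3 del/+ libraries exchanged 2882 regions were gained and 3429 lost, the width difference was 0.112, gaps were 9765 and 7375 bp, and the follow-up differences were -3.68, a reversal, and -5.69, and the cause was not tested.

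A replicate block, in which libraries of the same number were compared in pairs, gave 12032 wider and 7759 narrower regions, and left gained and lost counts as they were, since these need agreement of all 4 libraries. Across 35113 regions the width differences of the 2 pairs correlated with r = 0.0225. The alternatives that follow were added after the data were seen. Requiring absence from the full lists of the other group gave 2743 gained and 3964 lost regions, and limits of 600 and 800 bp for broad peaks gave 1492 and 1252 regions broad in Flt3-ITD alone and 578 and 507 in control alone. Read depth is unknown, so how far missed calls set any count was not tested.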
